A study of Mus musculus with 2 samples.

Results

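The barcodes described here were those in which 2 contigs of the T cell receptor beta chain (TRB) had been assembled, whatever the number of alpha chain (TRA) contigs. They were found by counting the TRB contigs of each cell barcode, and there were 299 of them among the 9117 barcodes of 2 libraries. Both libraries held CD4 single positive (SP) T cells of the thymus, enriched by negative selection with a kit for naive CD4 T cells, from mice aged 8 to 12 weeks. One library came from wild type mice (WT, strain C57BL/6J). The other came from mice that lack BTLA, a co-inhibitory receptor of lymphocytes, from the germline on (Btla-/-, strain C57BL/6-Btla KO). The sources used here do not give the number of mice behind a library, so each genotype was 1 sample and no test between genotypes was possible. The libraries hold TCR transcripts and no other genes, so the CD4 SP label could not be checked against markers. The WT library held 80347 unique molecular identifiers (UMIs, each the count of 1 captured transcript) and 26700294 reads in 6003 contigs, and the Btla-/- library 75456 UMIs and 22026825 reads in 7101 contigs.

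A developing T cell joins a V, a D and a J segment of the beta locus first, and the beta chain that results is tested at beta selection before the alpha locus is opened. Signals from that checkpoint normally stop further V to DJ joining on the other chromosome, which is called allelic exclusion, so that most T cells make a single functional beta chain. The alpha locus has no such stop, and T cells with a pair of productive alpha chains are well known. A barcode with a pair of beta chains can therefore be a cell that escaped allelic exclusion (allelic inclusion), or a droplet that took up a pair of cells, each with a beta chain of its own.

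The WT library had 132 such barcodes among 4040, a share of 3.27% (exact 95% binomial interval 2.74 to 3.86%). The Btla-/- library had 167 among 5077, a share of 3.29% (2.82 to 3.82%). The intervals of the 2 libraries overlapped over most of their width. Here and throughout, intervals cover counting error only and not the spread between mice. Every one of these barcodes held exactly 2 TRB contigs, and no barcode of either library held more than 2 TRB or more than 2 TRA contigs. The libraries had 30 barcodes in common, of which 1 was a WT barcode with 2 TRB chains and 0 were such barcodes of Btla-/-.

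The CDR3, the loop in which V, D and J are joined, identifies a rearrangement. The following nucleotide sequences, taken from the contigs and written 5′ to 3′, are those of the 2 barcodes per library with the most UMIs of the second chain, and they show how unlike the chains of a barcode were. Lower case marks bases that equal the germline V segment from the left or the germline J segment from the right in GRCm38, and capitals mark the junction between them, which holds the D segment and added bases. Each line names the chain and its UMIs, and the chain with more UMIs is called the first.
WT barcode A, first chain TRBV17/TRBJ2-7, 81 UMIs: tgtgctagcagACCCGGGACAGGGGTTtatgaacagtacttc
WT barcode A, second chain TRBV19/TRBJ2-3, 54 UMIs: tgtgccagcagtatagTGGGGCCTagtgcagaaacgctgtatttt
WT barcode B, first chain TRBV5/TRBJ2-2, 26 UMIs: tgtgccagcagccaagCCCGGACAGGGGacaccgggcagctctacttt
WT barcode B, second chain TRBV15/TRBJ1-1, 25 UMIs: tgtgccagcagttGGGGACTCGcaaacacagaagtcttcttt
Btla-/- barcode C, first chain TRBV3/TRBJ2-4, 65 UMIs: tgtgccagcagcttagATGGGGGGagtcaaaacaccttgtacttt
Btla-/- barcode C, second chain TRBV19/TRBJ2-7, 30 UMIs: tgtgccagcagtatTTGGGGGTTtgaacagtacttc
Btla-/- barcode D, first chain TRBV3/TRBJ2-7, 32 UMIs: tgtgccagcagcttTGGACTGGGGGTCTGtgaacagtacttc
Btla-/- barcode D, second chain TRBV16/TRBJ1-3, 23 UMIs: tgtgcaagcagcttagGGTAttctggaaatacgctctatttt

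In each of these 4 barcodes the chains differed in V segment, J segment and junction. Barcodes A, C and D held a single alpha chain, which was TRAV12-2/TRAJ58 in A, TRAV8N-2/TRAJ34 in C and TRAV6D-6/TRAJ37 in D. Barcode B held a pair of alpha chains, TRAV6N-6/TRAJ12 and TRAV16N/TRAJ26.

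Over all 299 barcodes, the CDR3 nucleotide sequences of the first and second chain were at least 7 edits apart in WT (median 18, largest 27) and at least 6 edits apart in Btla-/- (median 18, largest 28). No barcode had a pair of CDR3s within 2 edits, that is 0 of 132 in WT (upper limit 2.76%) and 0 of 167 in Btla-/- (upper limit 2.18%). None of the second chains was thus a near copy of the first chain of its barcode.

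The second chain was usually well covered. In WT the first chain had a median of 17 UMIs (lowest 2, quartiles 11 and 25.2, highest 81) and the second a median of 8.5 UMIs (lowest 1, quartiles 5 and 13, highest 54). In Btla-/- the first chain had a median of 12 UMIs (lowest 2, quartiles 8 and 17.5, highest 120) and the second a median of 7 UMIs (lowest 1, quartiles 5 and 10, highest 30). At least 5 UMIs of the second chain were present in 108 WT barcodes (81.8%, 74.2 to 88.0%) and in 128 Btla-/- barcodes (76.6%, 69.5 to 82.8%). A second chain with a single UMI was seen in 2 barcodes of each library. The reads behind each UMI were alike for both chains, with medians of 344 and 348 reads per UMI for the first and second chain in WT and of 303 and 294 in Btla-/-. Barcodes with 1 TRB chain had 334 and 293.

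Within a barcode the second chain had a median of 0.50 times the UMIs of the first in WT (95% interval of the median 0.462 to 0.571, lowest 0.10) and 0.60 times in Btla-/- (0.533 to 0.636, lowest 0.138). It reached at least 0.25 of the first in 87.1% of WT (80.2 to 92.3%) and 94.6% of Btla-/- barcodes (90.0 to 97.5%), and at least 0.75 in 28.0% and 31.7%. Equal UMIs were counted in 3 WT and 13 Btla-/- barcodes. For scale, the UMI counts of every possible pair of barcodes with 1 TRB chain were set side by side, as arithmetic and not as a test. Their lower count was a median of 0.469 of the higher in WT and 0.50 in Btla-/-, and it was at least 0.25 of the higher in 78.8% and 81.9% of pairs. Among pairs of barcodes with 1 TRB that also had TRA, the median was 0.50 in both libraries, and the lower count was at least 0.25 of the higher in 82.7% of pairs in WT and 83.3% in Btla-/-. The WT interval of 80.2 to 92.3% was above the value of all pairs and included that of pairs with TRA, and the Btla-/- interval was above both. The lower count was at least 0.5 of the higher in 48.3% and 51.1% of all pairs, and in 52.5% and 52.9% of pairs with TRA. In barcodes with 2 TRB chains that share was 56.8% (47.9 to 65.4%) in WT, an interval that includes both values of the pairs, and 65.9% (58.1 to 73.0%) in Btla-/-, an interval above both. Over barcodes, the UMIs of the first and second chain went up together, with Spearman's rho of 0.61 in WT (n = 132) and 0.70 in Btla-/- (n = 167). The points share the depth of their library, and the second chain is at most as large as the first by its definition.

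**Figure D1:**
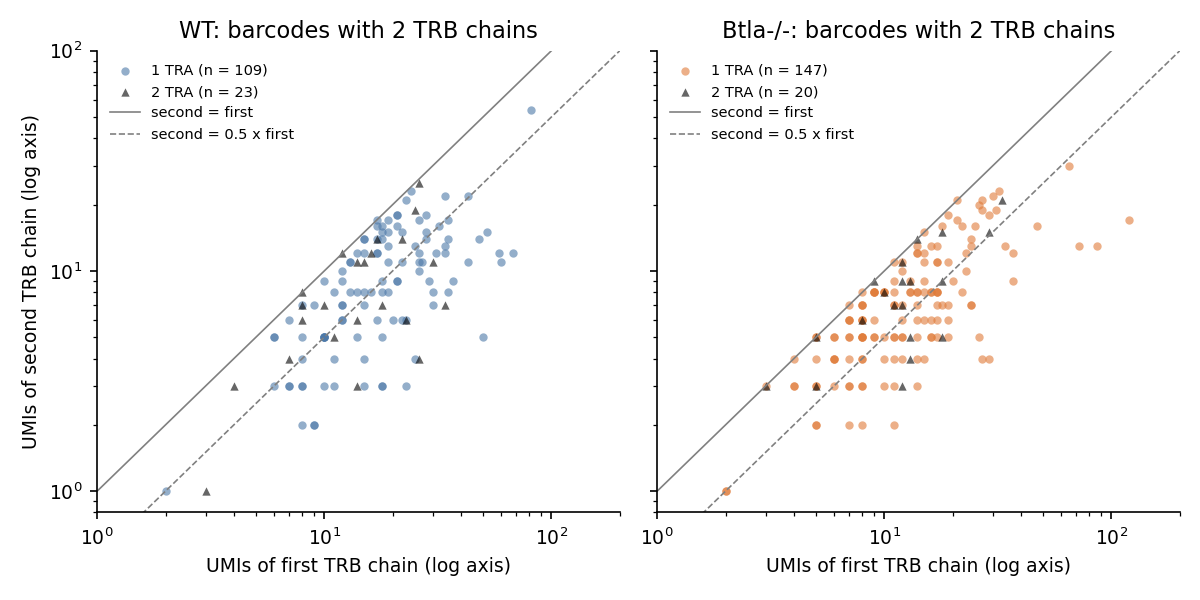
UMIs of the first TRB chain (x axis) against UMIs of the second TRB chain (y axis), both on log axes, for the 132 WT barcodes (left) and the 167 Btla-/- barcodes (right) with 2 TRB chains. Circles are barcodes with 1 TRA chain and triangles barcodes with 2, and most points lie between 0.25 of the first chain and the line of equal UMIs, with triangles spread among the circles.

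Barcodes with 2 TRB chains differed from other barcodes in their alpha chains. None of the barcodes with 2 TRB chains lacked TRA, that is 0 of 132 in WT (upper limit 2.76%) and 0 of 167 in Btla-/- (upper limit 2.18%). Of the barcodes with 1 TRB chain, 60.3% in WT (58.7 to 61.8%) and 67.7% in Btla-/- (66.3 to 69.0%) had no TRA. Adding the alpha chains of a pair of independent barcodes with 1 TRB chain would leave 36.3% without TRA in WT and 45.8% in Btla-/-. The reverse case had the same gap. There were 31 WT and 63 Btla-/- barcodes with 1 TRA chain and no TRB, and 0 with 2 TRA chains and no TRB in either library. A pair of chains of a kind thus occurred in these contig lists only beside a chain of the other kind. When contigs under 3 UMIs were left out, 26.0% of WT and 39.4% of Btla-/- barcodes with 2 TRB had no TRA, against 72.4% and 82.2% of barcodes with 1 TRB. Whether the gap came from the cells or from the calling of cells and chains was not tested. For this reason the barcodes with 1 TRB chain and at least 1 TRA chain (1541 in WT and 1568 in Btla-/-) were used as a further comparator, chosen after the data had been seen. Among barcodes with both kinds of chain, those with 2 TRB made up 7.89% in WT (6.64 to 9.29%) and 9.63% in Btla-/- (8.28 to 11.1%).

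A single alpha chain was by far the most common state. It was found in 109 of 132 WT barcodes (82.6%, 75.01 to 88.6%) and in 147 of 167 Btla-/- barcodes (88.0%, 82.1 to 92.5%). A pair of alpha chains was found in 23 WT barcodes (17.4%, 11.4 to 24.99%) and 20 Btla-/- barcodes (12.0%, 7.47 to 17.9%). Among barcodes with 1 TRB and TRA, a pair of alpha chains was less frequent, at 8.76% in WT (7.40 to 10.3%) and 6.51% in Btla-/- (5.33 to 7.84%). The intervals lay apart in WT and overlapped in Btla-/-. In WT they overlapped once contigs with 1 UMI were left out, with 15.4% (9.38 to 23.2%) of the barcodes with 2 TRB and TRA against 8.75% (7.29 to 10.4%). With contigs of at least 3 UMIs the shares among barcodes with TRA were 12.8% against 7.74% in WT and 6.19% against 3.81% in Btla-/-. Barcodes with TRB were also read the other way, by their TRA chains. Among them, 2 TRB chains were present in 7.19% of WT barcodes with 1 TRA (5.94 to 8.61%) and in 14.6% of those with 2 TRA (9.46 to 21.04%). In Btla-/- the shares were 9.11% (7.75 to 10.6%) and 16.4% (10.3 to 24.2%).

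The shares were also compared at a like depth of the first TRB chain. With over 10 UMIs of the first chain, 16 of 102 WT barcodes with 2 TRB had 2 TRA (15.7%, 9.24 to 24.2%), against 9.77% (7.96 to 11.8%) of barcodes with 1 TRB and TRA, and these intervals overlapped. In Btla-/- the same class gave 14 of 103 (13.6%, 7.63 to 21.8%) against 6.37% (4.74 to 8.36%), and the intervals overlapped as well. With 6 to 10 UMIs the counts were 5 of 27 in WT (18.5%) and 3 of 48 in Btla-/- (6.25%), and the comparators had 8.22% and 6.78%.

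The same arithmetic on pairs of barcodes with 1 TRB gave a higher share of 2 alpha chains than was found. Of added pairs with 1 or 2 TRA, 28.4% in WT and 22.7% in Btla-/- would have 2 TRA. Both values were above the upper bounds measured in barcodes with 2 TRB, which were 24.99% and 17.9%. This holds for contigs of any UMI count. The arithmetic was not repeated with a UMI minimum per contig, under which the shares of 2 TRA fell. The arithmetic also gave 3 TRA in 2.53% of pairs in WT and 1.27% in Btla-/-, and 4 TRA in 0.121% and 0.0443%. The contig lists held at most 2 TRA in any barcode, whatever its TRB chains, so these values had no measured counterpart. With contigs of any UMI count, the measured shares lay between those of single barcodes and those of added pairs.

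**Figure D2:**
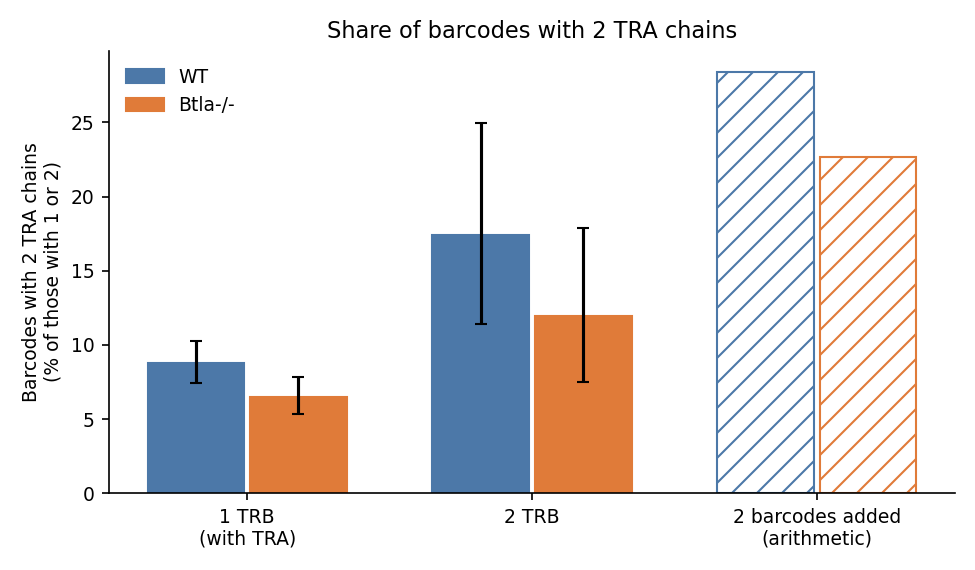
Percent of barcodes with 2 TRA chains among those with 1 or 2 (y axis) for barcodes with 1 TRB chain and TRA, for barcodes with 2 TRB chains, and for the arithmetic sum of 2 barcodes with 1 TRB chain (hatched), in WT (blue) and Btla-/- (orange). Error bars are exact 95% binomial intervals, and the 17.4% and 12.0% of barcodes with 2 TRB chains lie between the other columns.

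Summed TRB UMIs were about doubled in these barcodes, which were chosen for a second TRB chain, and summed TRA UMIs were not. Summed over its chains, a barcode with 2 TRB had a median of 27 TRB UMIs in WT (24 to 30) and 19 in Btla-/- (18 to 22). Barcodes with 1 TRB and TRA had medians of 13 (12 to 13) and 10 (10 to 11), so that the medians stood in a ratio of 2.08 in WT and 1.90 in Btla-/-. The summed TRA UMIs had medians of 4 and 4 in WT and of 3 and 3 in Btla-/-, a ratio of 1 in each library. TRB UMIs per TRA UMI were accordingly higher, with a median of 6.33 (5.33 to 7.80) against 3.5 (3.33 to 3.67) in WT and of 6 (5.33 to 7.75) against 3.5 (3.33 to 4) in Btla-/-. A pair of barcodes with 1 TRB and TRA would together have a median of 28 TRB UMIs in WT and 22 in Btla-/-. Over all pairs of barcodes with 1 TRB, with or without TRA, the medians were 29 and 23. The WT interval of 24 to 30 included both of its values. The Btla-/- interval of 18 to 22 ended at 22 and lay below 23. No sum over pairs was made for TRA UMIs. Of added pairs of barcodes with 1 TRB that have 1 or 2 TRA, 71.6% in WT and 77.3% in Btla-/- would have 1 TRA. What lay behind the unlike TRB and TRA sums was not tested.

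The split by alpha chains showed where the TRA transcripts rested. Barcodes with 2 TRB and 1 TRA had a median of 29 TRB UMIs and 4 TRA UMIs in WT, and 19 and 3 in Btla-/-. Barcodes with 1 TRB and 1 TRA had 13 and 3 in WT, and 10 and 3 in Btla-/-. With 2 TRB and 2 TRA the medians were 25 TRB and 8 TRA UMIs in WT (n = 23) and 18.5 and 5.5 in Btla-/- (n = 20). With 1 TRB and 2 TRA they were 14 and 8 in WT (n = 135) and 10 and 5 in Btla-/- (n = 102). A second chain of a kind thus went with more UMIs of that kind, to which the grouping itself contributes, and much less with more of the other. The second alpha chain of barcodes with 2 TRB had a median of 0.60 times the UMIs of the first in WT and 0.667 in Btla-/-, and barcodes with 1 TRB and 2 TRA had 0.667 in both.

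**Figure D3:**
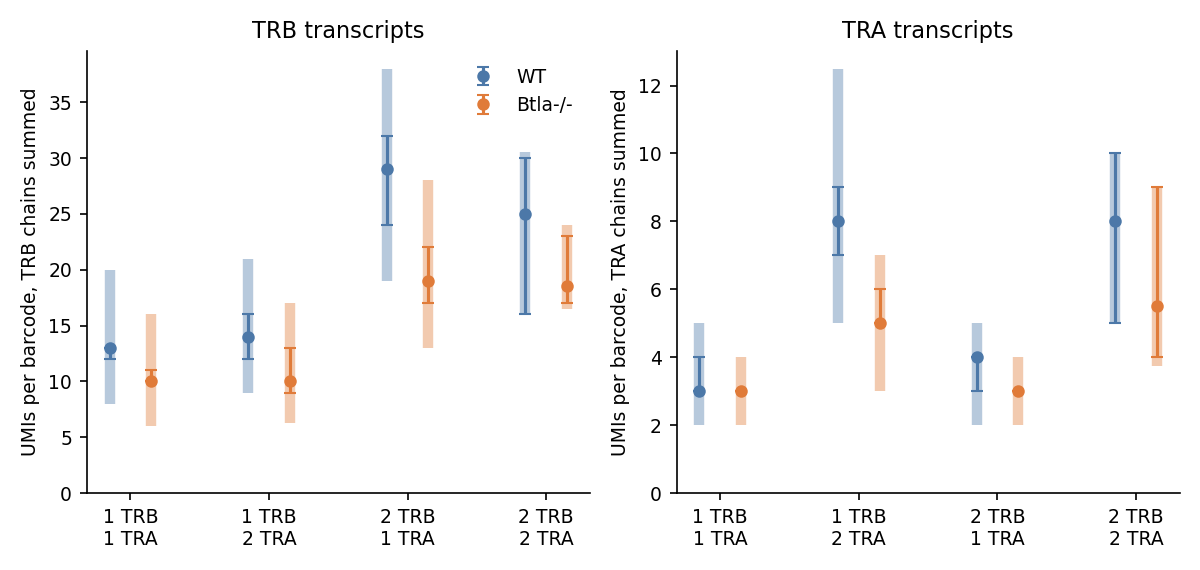
UMIs per barcode summed over its TRB chains (left) and over its TRA chains (right), for barcodes grouped by their number of TRB and TRA chains, in WT (blue) and Btla-/- (orange). Points are medians, thin bars the 95% intervals of the medians and broad bars the quartiles, and TRB UMIs step up with the second TRB chain (13 to 29 in WT with 1 TRA) while TRA UMIs step up with the second TRA chain (3 to 8 in WT with 1 TRB).

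All TRBV segments lie on mouse chromosome 6 (GRCm38), from TRBV1 at chr6:40891229-40891885 to TRBV30 at chr6:41281376-41281990. They are followed by the first cluster of D, J and C segments, with TRBC1 at chr6:41538218-41539881, and by the second cluster, with TRBC2 at chr6:41546730-41548352. TRBV31, at chr6:41557691-41558452, lies beyond TRBC2 on the minus strand and joins by inversion.

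The V segments used were largely those of other barcodes. Over both chains, the WT barcodes most often used the subgroups TRBV13 (39 of 264 chains, 14.8%, 10.7 to 19.6%), TRBV12 (38 chains, 14.4%) and TRBV19 (24 chains, 9.09%). Barcodes with 1 TRB used them in 12.5%, 11.3% and 7.07% of chains. The Btla-/- barcodes most often used TRBV13 (44 of 334 chains, 13.2%, 9.74 to 17.3%), TRBV12 (36 chains, 10.8%) and TRBV16 (28 chains, 8.38%), against 12.5%, 10.9% and 6.15% in barcodes with 1 TRB. Chains with the joint V call TRBV12-2+TRBV13-2 were kept apart from TRBV12 and TRBV13, and made up 5.30% in WT and 7.49% in Btla-/-. The joint call was counted as a V segment of its own, and its germline V was read as TRBV13-2 in the junction count. Of the 17 subgroups with at least 10 such chains over both libraries, 1 had an interval apart from that of barcodes with 1 TRB, and in WT alone. It was TRBV26, with 2 of 264 WT chains (0.758%, 0.0919 to 2.71%) against 3.48% (2.93 to 4.11%). Against barcodes with 1 TRB and TRA (3.11%, 2.31 to 4.11%) its intervals overlapped, and in Btla-/- it made up 4.19% (2.31 to 6.93%) against 3.98%. The inverted TRBV31 gave 4.55% of chains in WT (2.37 to 7.81%) and 5.09% in Btla-/- (2.99 to 8.02%), against 3.998% and 3.90% in barcodes with 1 TRB.

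**Figure D4:**
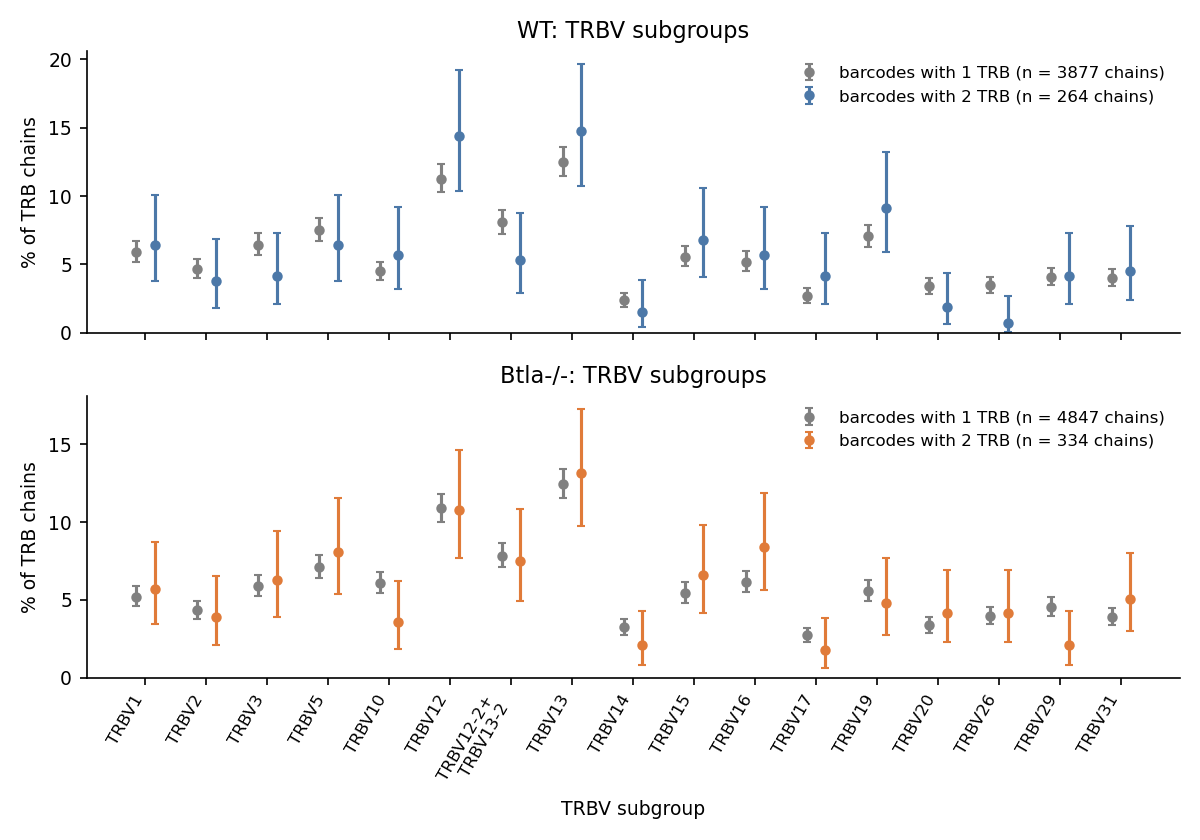
Percent of TRB chains (y axis) that used each of the 17 TRBV subgroups with at least 10 chains in barcodes with 2 TRB (x axis), in WT (top) and Btla-/- (bottom). Grey points are barcodes with 1 TRB chain, coloured points both chains of barcodes with 2 TRB, and bars are exact 95% binomial intervals, which overlap for every subgroup but TRBV26 in WT.

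Among J segments, TRBJ2-7 was used most in both libraries, with 19.3% of chains in WT and 14.7% in Btla-/-, against 15.7% and 14.8% in barcodes with 1 TRB. TRBJ2-5 came next in WT (11.4%) and TRBJ1-1 in Btla-/- (10.5%). The J clusters of first and second chains had overlapping intervals in WT, where TRBJ1 segments made up 37.9% of first chains (29.6 to 46.7%) and 40.9% of second chains (32.4 to 49.8%), against 39.9% (38.3 to 41.4%) in barcodes with 1 TRB. In Btla-/- TRBJ1 made up 38.9% of first chains (31.5 to 46.8%) and 49.1% of second chains (41.3 to 56.9%). The interval of the second chains lay just above that of Btla-/- barcodes with 1 TRB, which was 39.9% (38.5 to 41.3%), and it overlapped that of the first chains. Every chain with a C call carried the C gene of its own J cluster, 263 of 263 in WT and 333 of 333 in Btla-/-.

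The pairing of C and J segments was near the product of their single shares. The commonest pairs of V subgroups were TRBV1 with TRBV12 and TRBV12 with TRBV13 in WT, in 6 barcodes each, and TRBV12 with TRBV16 in Btla-/-, in 7. Barcodes with the same pair of chains were each counted here. The TRBV12 with TRBV13 count in WT includes 1 such pair in 3 barcodes. The TRBV12 with TRBV16 count in Btla-/- includes 2 such pairs, in 2 barcodes each. TRBV1 with TRBV13 and TRBV13 with TRBV16 followed in Btla-/-, in 6 each. No product was made for pairs of V subgroups. A TRBC1 chain stood beside a TRBC2 chain in 61 of 131 WT barcodes (46.6%, 37.8 to 55.5%) and in 76 of 166 Btla-/- barcodes (45.8%, 38.04 to 53.7%). The product of the shares in barcodes with 1 TRB was 47.9% in WT and 47.8% in Btla-/-. A pair of TRBC1 chains made up 16.03% and 21.1%, against products of 15.8% and 15.6%. The same J segment in both chains was found in 15 WT barcodes (11.4%) and 17 Btla-/- barcodes (10.2%), against products of 9.72% and 9.55%. The same V segment was rarer than its product, with 2 WT barcodes (1.52%, 0.184 to 5.37%) against 5.46%, and 5 Btla-/- barcodes (2.99%, 0.979 to 6.85%) against 5.38%. The WT interval ended just below the product and the Btla-/- interval included it.

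CDR3 and junction were of ordinary length. The CDR3 had a mean of 13.9 ± 1.55 amino acids in the first and 14.1 ± 1.43 in the second chain of WT (SD over 132 chains each), and of 14.2 ± 1.60 and 14.1 ± 1.61 in Btla-/- (SD over 167 chains each). In barcodes with 1 TRB and TRA the means were 14.1 ± 1.48 in WT and 14.2 ± 1.50 in Btla-/-. The bases between germline V and J were counted in the chains whose ends could be matched to the germline segments, which were 123 first and 125 second chains of 132 in WT, 161 of 167 each in Btla-/-, and 3702 of 3877 and 4552 of 4847 chains of barcodes with 1 TRB. They had a mean of 9.95 ± 4.24 in the first and 10.4 ± 4.17 in the second chains of WT, and of 10.6 ± 4.03 and 10.6 ± 4.21 in Btla-/-, against 10.5 ± 3.92 and 10.7 ± 3.995 in barcodes with 1 TRB. The invariant alpha chains TRAV11/TRAJ18 of NKT cells and TRAV1/TRAJ33 of MAIT cells were in 0 barcodes with 2 TRB, which allows up to 2.76% in WT and 2.18% in Btla-/-. Among barcodes with 1 TRB and TRA, 8 and 2 in WT and 9 and 1 in Btla-/- carried them.

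A cell that carries a pair of beta chains can pass both to its daughters. Repeats of the whole pair were counted, and whether barcodes with the same pair came from such daughters was not tested. A chain was taken as the same where V, J and CDR3 nucleotide sequence were equal. Such repeats were few but present in both libraries. In WT, 1 pair was found in 3 barcodes, and in Btla-/-, 3 pairs were found in 2 barcodes each. The sequences of the WT pair and of the 2 Btla-/- pairs with the most UMIs are given because the same junctions occurred together again.
WT pair, TRBV12-2/TRBJ2-5: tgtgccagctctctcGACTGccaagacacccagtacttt
WT pair, TRBV13-1/TRBJ2-7: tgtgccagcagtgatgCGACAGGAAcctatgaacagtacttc
Btla-/- pair 1, TRBV16/TRBJ2-5: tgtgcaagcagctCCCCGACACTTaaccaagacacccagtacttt
Btla-/- pair 1, TRBV15/TRBJ1-4: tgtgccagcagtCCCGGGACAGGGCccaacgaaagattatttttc
Btla-/- pair 2, TRBV12-2/TRBJ1-1: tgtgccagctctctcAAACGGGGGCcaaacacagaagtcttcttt
Btla-/- pair 2, TRBV16/TRBJ1-1: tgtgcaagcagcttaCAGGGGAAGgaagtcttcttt

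The 3 WT barcodes held 12 and 6, 21 and 9, and 8 and 8 UMIs of TRBV12-2/TRBJ2-5 and TRBV13-1/TRBJ2-7. All 3 also held the same alpha chain, TRAV8D-1/TRAJ48, and 1 of them held TRAV9-4/TRAJ49 as well, with 1 UMI. The 2 barcodes of the first Btla-/- pair held 15 and 15, and 4 and 6 UMIs of TRBV16/TRBJ2-5 and TRBV15/TRBJ1-4, each with TRAV12N-2/TRAJ23. The chain with more UMIs was thus not the same in both. The second Btla-/- pair had 13 and 8, and 11 and 5 UMIs with TRAV4N-4/TRAJ56. A further Btla-/- pair, TRBV12-2/TRBJ2-4 with TRBV16/TRBJ2-1, had 12 and 5, and 8 and 2 UMIs with TRAV7-3/TRAJ15. By CDR3 sequence alone there was 1 more, TRBV1/TRBJ1-2 with a TRBJ2-2 chain. The V of that TRBJ2-2 chain was called TRBV13-2 in 1 barcode and TRBV12-2+TRBV13-2 in the other. These barcodes held 26 and 5, and 16 and 5 UMIs, with TRAV13-4-DV7/TRAJ42 in both. In all 5 pairs the barcodes therefore shared 2 beta chains and an alpha chain. A barcode with 2 TRB and any barcode that shared a TRB chain with it differed at 10 or more of their 16 bases in WT. In Btla-/- they differed at 8 or more.

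**Figure D5:**
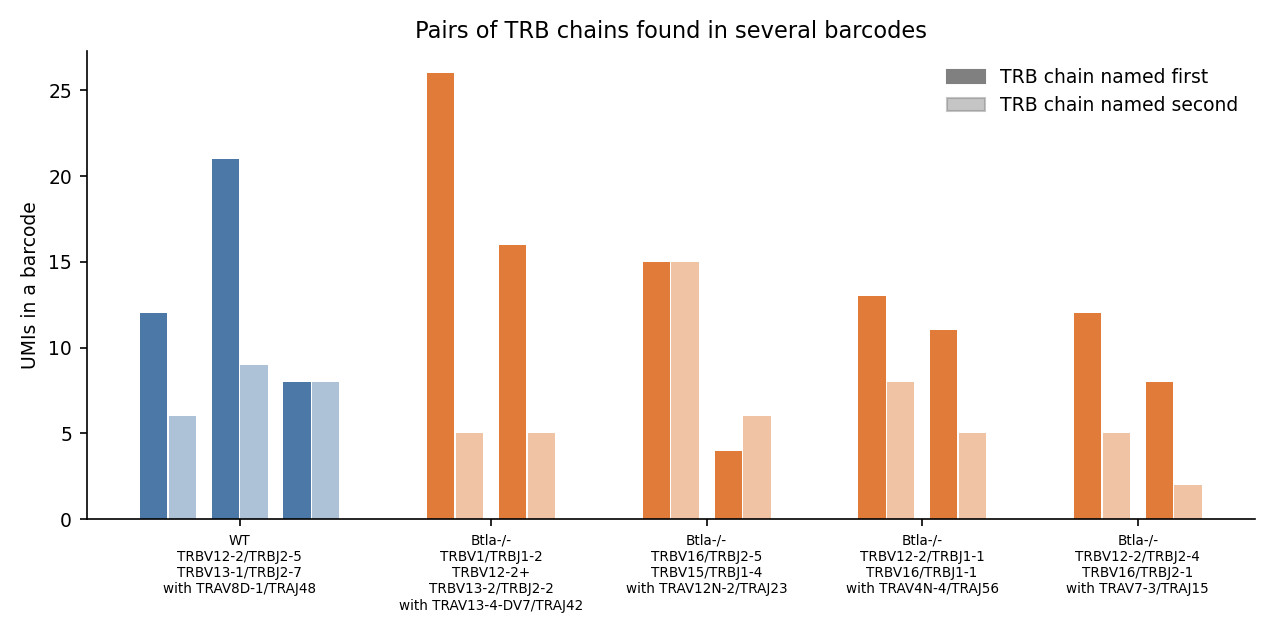
UMIs of each TRB chain (y axis) in every barcode that held a pair of TRB chains, matched by CDR3 nucleotide sequence, that also occurred in another barcode, with 3 WT barcodes (blue) and 8 Btla-/- barcodes (orange). Dark and light bars are the TRB chains named first and second under each group, the shared TRA chain is named below them, and both TRB chains had at least 2 UMIs in every one of these barcodes.

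Single chains found in other barcodes were also counted. The first chain was also in another barcode of its library in 6 of 132 WT barcodes (4.55%, 1.69 to 9.63%) and 18 of 167 Btla-/- barcodes (10.8%, 6.51 to 16.5%), and the second in 6 (4.55%) and 12 (7.19%, 3.77 to 12.2%). With each repeated pair of chains counted once, the share of second chains was 2.31% in WT (0.478 to 6.60%) and 3.66% in Btla-/- (1.35 to 7.79%). Barcodes with 1 TRB and TRA, in which repeats were all counted, had 5.06% in WT (4.02 to 6.28%) and 8.04% in Btla-/- (6.74 to 9.49%). A chain of the other library was matched by 1 WT chain of 264 and 0 Btla-/- chains of 334.

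Where a barcode with 2 TRB shared only 1 of them with a barcode with 1 TRB, the alpha chains were compared. In WT, 3 of 7 such pairs of barcodes had the alpha chain in common too, 2 had different alpha chains and 2 had a partner without TRA. In Btla-/- the counts were 4, 4 and 3. In the Btla-/- barcode with the most UMIs among these, TRBV17/TRBJ2-7 had 86 UMIs and TRBV26/TRBJ2-2 had 13, and another barcode held TRBV17/TRBJ2-7 alone, with 64 UMIs and the same TRAV7N-6/TRAJ4. In 1 WT barcode with 2 TRB and 2 TRA, TRBV5/TRBJ2-5 had 23 UMIs and TRBV31/TRBJ2-5 had 6, beside TRAV14-2/TRAJ58 and TRAV7-5/TRAJ9. Another WT barcode held TRBV31/TRBJ2-5 with TRAV7-5/TRAJ9 as its only pair, with 12 TRB UMIs. That barcode with 2 TRB thus held 2 alpha and 2 beta chains, of which an alpha and a beta chain made up a receptor found alone elsewhere. In Btla-/-, 1 pair of barcodes with 2 TRB each shared TRBV19/TRBJ2-7 and TRAV14N-3/TRAJ9 and differed in the other beta chain, which was TRBV13-1/TRBJ2-4 in the first and TRBV12-1/TRBJ2-7 in the second. Over all pairs of barcodes that shared a TRB chain and both had TRA, an alpha chain was in common in 6 of 8 in WT and 9 of 15 in Btla-/-. In pairs of barcodes with 1 TRB and TRA that shared their TRB chain, an alpha chain was in common in 22 of 25 and 32 of 40. The pairs are not independent, as a barcode can be in more than 1. The 6 and the 9 each include 3 pairs that shared both TRB chains, which in WT came from the same 3 barcodes.

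For any single barcode, allelic inclusion and a droplet with a pair of cells cannot be told apart from the contig list, which holds no other transcripts, and the share of each among the 299 barcodes was not estimated.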

How the data were processed

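CD4 SP thymocytes of WT and Btla-/- mice were profiled with a 10x Genomics V(D)J workflow. The authors assembled contigs with Cell Ranger 7.2.0 and the GRCm38 reference. For every productive contig of a called cell, the deposited tables list its read count and its UMI count as they were, with no scaling. Deposited summary tables were not used. No doublet removal was applied here.

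Barcodes with at least 2 TRB contigs were taken from each library, and their chains were ranked by UMIs, then reads. Shares have exact (Clopper-Pearson) 95% intervals and medians have order-statistic intervals. With 1 library per genotype no test was made. Products and added pairs are arithmetic from barcodes with 1 TRB. The named V subgroups are the 3 most used per library, and those with at least 10 chains whose intervals lie apart. The named J segments are the 2 most used. Sequences are those of the 2 barcodes per library with most UMIs of the second chain and of up to 3 repeated pairs. Germline V and J were read from the GRCm38 genome at GENCODE positions, which were found for all 37 gene names. The single barcodes described beside shared chains, TRBV31, the J cluster by chain rank and the pairs of UMI counts were chosen after their values were seen. The members and lists were chosen with earlier results of these data known. Python 3.11.15, pandas 2.3.3, SciPy 1.17.1 and pysam 0.24.0 were used, and scripts were tested on simulated data. Alternatives were UMI minimums of 2 and 3 per contig, barcodes of both libraries left out, other denominators, ranking by reads, matching by CDR3 alone and each pair counted once. Further ones were exactly 2 TRB chains, and CDR3s within 2 edits counted as 1 chain.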

Additional observations from a re-analysis of the deposited data

How the results depend on the processing

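Under the alternative settings, 52 values stayed within the interval of the reported value and 6 moved outside it. The 52 include settings that could not change a value. These were exactly 2 TRB chains, and CDR3s within 2 edits counted as 1 chain. No barcode held more than 2 TRB chains or CDR3s that close. All 6 came from the UMI minimum per contig. With at least 2 UMIs the share of barcodes with 2 TRB and no TRA went from 0 to 10.0% in WT and 12.7% in Btla-/-, and with at least 3 UMIs to 26.0% and 39.4%. With at least 3 UMIs the share with 2 TRA became 9.45% in WT and 3.75% in Btla-/-. Many alpha chains beside 2 TRB chains thus rested on 1 or 2 UMIs. Of the alternatives added after seeing the data, 9 values stayed and 3 moved. The share of barcodes with 2 TRB was 7.89% in WT and 9.63% in Btla-/- of barcodes with TRA and TRB. Counting each pair of TRB chains once, the second chain was also in another barcode in 2.31% of WT barcodes, within the reported interval, and in 3.66% of Btla-/- barcodes, outside it. No paired analysis was possible because there was 1 library per genotype. The few UMIs per alpha chain limit the count of alpha chains, and the number of barcodes limits all shares.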
